A study of Arabidopsis thaliana with 18 samples.

Results

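Leaf splicing in the Arabidopsis thaliana accession Bur-0 was compared with that in the accession C24, without any library of the reference accession Col-0 in the contrast. The members are 4 of the 18 libraries of the series, 2 labelled Bur-0 and 2 labelled C24. An event entered the test when its type, gene and chromosome coordinates were listed for both accessions and it had at least 10 reads in each of the 4 libraries. Of 6171 events listed for Bur-0 and 5666 listed for C24, 5546 were in both lists, and 5158 events in 2635 genes met the read minimum.

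PolyA RNA was sequenced from 5 inbred accessions and from the F1 hybrids of Col-0 with each of the other 4, in 2 biological replicates per group. The groups used here are Bur-0, C24, the hybrid Col-0 x Bur-0, the hybrid Col-0 x C24 and, for levels only, Kro-0, Ler-1 and Col-0. Both hybrids carry a Col-0 genome. All plants were untreated seedlings grown for 14 days on Murashige and Skoog plates with 1% sucrose, with 16 h at 22 °C under light of 100 µmol m-2 s-1 and then 8 h of darkness at 18 °C, and RNA came from the first leaf. How many plants made up a library, and which parent of a hybrid was the mother, are not given in the sources used here, so that p-values measure only the spread between these libraries.

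Splicing joins exons and removes the introns between them, and the spliceosome finds an intron by its donor site at the 5′ end, usually GT, and its acceptor site at the 3′ end, usually AG. Where more than 1 site can be used, or an intron or exon can be kept or left out, a gene yields several transcripts. In plants the retention of introns is a common form. Sequence changes in a splice site or near it act on the transcripts of their own allele, whereas changes in a splicing factor can reach the transcripts of both alleles in a hybrid.

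Each event has reads of 2 forms. The second form is the one that keeps more sequence: the retained intron, the shorter of 2 alternative introns, or the included exon. PSI, given here in percent, divides the reads that show the second form by the event's total plus 1, and differences are Bur-0 minus C24 in percentage points. A difference was called where edgeR's quasi-likelihood test, adjusted by Benjamini and Hochberg's method over all 5158 events, gave a p under 0.05. Where events of 1 gene overlap, the same reads can enter several of them.

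Read totals over the listed events were 5124772 and 5141043 in Bur-0, against 3636688 and 3186952 in C24, and 4004272 to 5492731 in the hybrids. The median number of reads of a tested event was 105 and 102 in the Bur-0 libraries and 73 and 69 in the C24 libraries, and 2134 tested events had fewer than 50 reads in at least 1 library. Between the replicates of an accession the median absolute difference in PSI was 1.86 points in Bur-0 and 2.18 points in C24. Genes of a photosynthesis list took 37.9% to 41.9% of the reads, and RBCS1A alone, a small subunit gene of Rubisco, 15.2% to 20%. A listed event was found for FAMA, MYB60 and ATML1 among 12 markers of guard cells, trichomes, epidermis and veins, with 43 to 139 reads per library, and none of these 3 events was called by edgeR (1 had an unadjusted p under 0.05; DESeq2 and limma also called 0).

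PSI differed between Bur-0 and C24 in 277 events, 5.37% of those tested, in 191 genes, 7.25% of the genes tested. PSI was higher in Bur-0 in 166 of them (3.22% of tested events) and lower in 111 (2.15%). The median absolute difference was 20.8 points over the called events and 2.45 points over all tested events. In 189 events (3.66% of those tested) the difference was at least 10 points, higher in Bur-0 in 117 and lower in 72, and in 45 it was at least 50 points, higher in 22 and lower in 23. All 277 called events had 2 Bur-0 values on the same side of the 2 C24 values, as had 51.2% of all tested events. Where all reads are of the second form, the 1 added to the total can by itself separate libraries of unequal depth. Most of the 191 genes had 1 called event (144 genes), 26 had 2, 15 had 3 and 6 had 4 or more.

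The number of calls depended on having all 4 libraries. Without C24 replicate 1 only 4 events were called, and without C24 replicate 2 only 21, against 42 and 40 when replicate 1 or replicate 2 of Bur-0 was left out. At the threshold itself stood ATS1 (−22.3 points), AT2G44060 (1.43 points) and RDUF1 (1.87 points), called at an edgeR adjusted p of 0.0499, and UMAMIT38 (13.8 points), HIR2 (11.4 points) and AT1G45150 (−37.7 points), which missed it at 0.0504, 0.0504 and 0.0509.

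**Figure D1:**
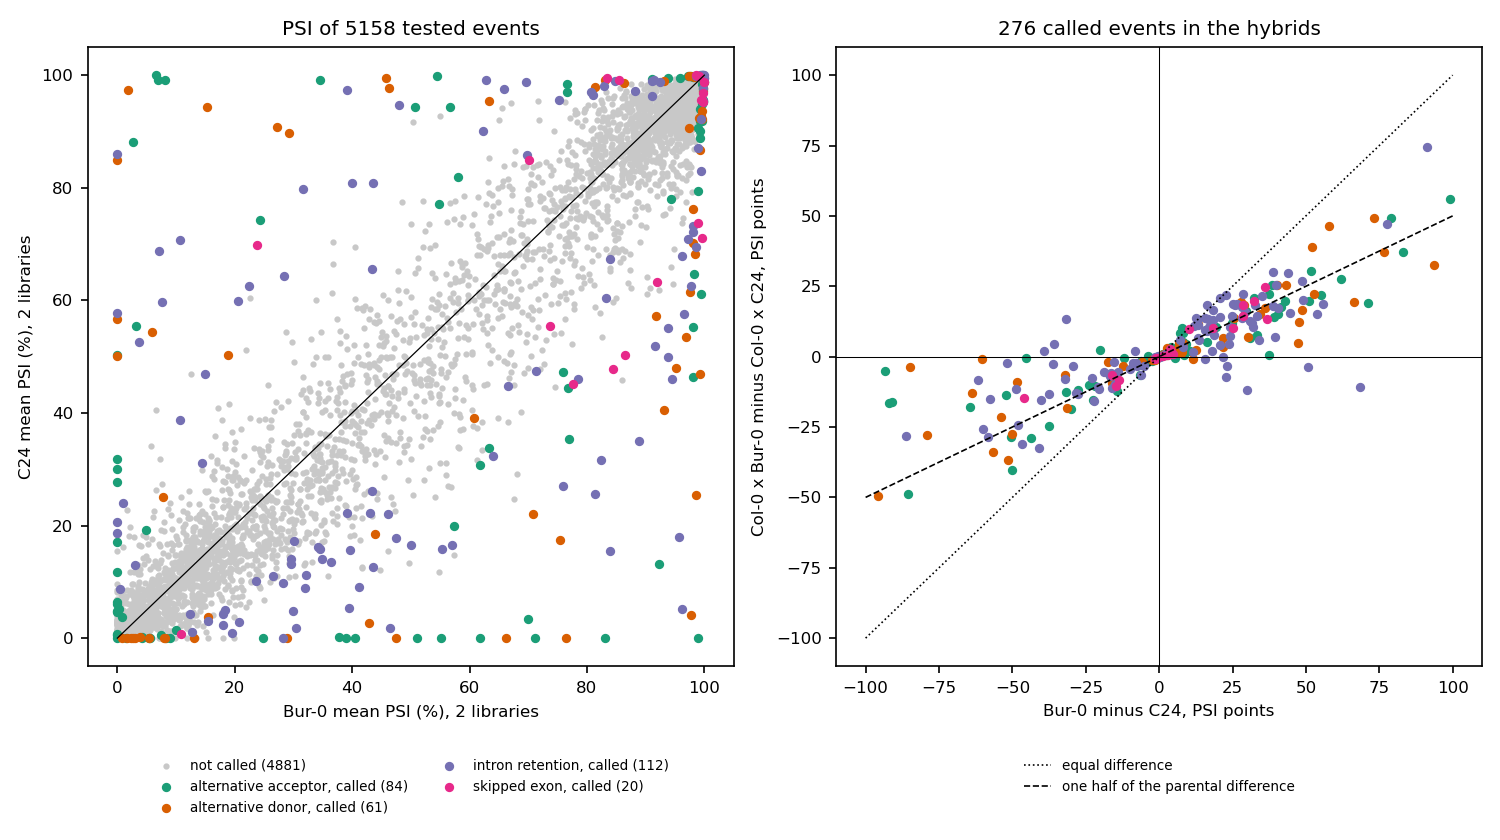
Left, mean PSI in percent of each of the 5158 tested events in Bur-0 (x axis) and C24 (y axis), with the 277 called events coloured by type; right, the PSI difference of the hybrid Col-0 x Bur-0 minus the hybrid Col-0 x C24 (y axis) against that between Bur-0 and C24 (x axis), in points, for the 276 called events also tested in the hybrids. Called events lie on both sides of the diagonal, and 258 of the 276 have the same sign in the hybrids.

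The sequences below belong to the 8 alternative donors or acceptors with the largest differences among the named events, and are shown because they hold the letters of the competing sites. They are the Col-0 reference (RefSeq TAIR10.1, strand of the gene), since no sequence of Bur-0 or C24 was used here. For AMY3, GTB1, AT1G23130 and CID7 the capitals mark the stretch that stayed in the transcript in the second form and left with the intron in the first form.
AMY3 acceptors, chr1:26291690-26291717, minus strand: gctttctcTTGGATCTGTAGgtgccctt
CID7 acceptors, chr2:11190613-11190632, minus strand: ttttttttGCAGattttggt
AT1G23130 acceptors, chr1:8200712-8200735, plus strand: gggtgcagATGGGCAGcccaaggt
GTB1 donors, chr1:24307706-24307735, minus strand: aagGTAACTCGGATCGTTCAGGCTCAGgta

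At the other 4 the sites lie farther apart, and the capitals mark the last or first letters of the intron at each site.
AT3G57810 donor of the first form, chr3:21415929-21415950, plus strand: gaaatcagagTTgagtataata
AT3G57810 donor of the second form, chr3:21415977-21415998, plus strand: gtccaccttgGTaatcctccat
ATG8E acceptor of the first form, chr2:18624695-18624716, plus strand: gtttatgtgcAGaaaagagaaa
ATG8E acceptor of the second form, chr2:18624525-18624546, plus strand: gtatattctcAGaagcaaagat
AT3G26920 acceptor of the first form, chr3:9921033-9921054, plus strand: ttgcttctgcAGatattatctt
AT3G26920 acceptor of the second form, chr3:9920963-9920984, plus strand: tttgtttcacAGcaaaagttgt
GGH3 donor of the first form, chr1:29591904-29591925, plus strand: cataagtcagGTcactcttttg
GGH3 donor of the second form, chr1:29591956-29591977, plus strand: ttccatatatGTaaagcaatgt

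The largest difference of all was at an acceptor of AMY3 (AT1G69830), which encodes a plastid alpha-amylase that breaks down starch. Of the reads, 634 of 638 and 657 of 664 in Bur-0 used the upstream acceptor, which keeps 12 nt more of the coding span, against 0 of 447 and 0 of 311 in C24. PSI was thus 99.0% ± 0.297 in Bur-0 and 0% in C24 (SD, n = 2 each), where 0 of 758 reads allow up to 0.396% (3 reads of the total, counting error only), a rise of 99.0 points (edgeR adjusted p = 6.36e-06). In the reference the intron ends in AG only at the downstream acceptor, after the capitals, and its upstream end reads TC. The intron of the first form is 227 nt long in the Bur-0 assembly and 226 nt in that of C24, by the coordinates in the event names, and 202 nt in Col-0. Col-0, Kro-0 and Ler-1 also had 0 reads of the upstream site (of 1277, 522 and 1348).

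CID7 (AT2G26280) and AT3G57810 also differed at a site that lacks the usual letters in the reference. CID7 encodes a protein with a domain that binds poly(A)-binding protein, and its event lies on the 5′ UTR side of the coding span. Its upstream acceptor, which keeps 4 nt, had 120 of 146 and 148 of 174 reads in Bur-0, against 0 of 147 and 0 of 191 in C24, where up to 0.888% is allowed. The rise was 83.1 points (edgeR adjusted p = 0.000106), and the 4 libraries did not overlap. In AT3G57810, annotated as a cysteine proteinase, all 39 and all 44 reads in Bur-0 were of the downstream donor GT, against 0 of 13 and 1 of 11 in C24. The C24 reads used a donor 48 nt upstream that reads TT in the reference, and PSI was 97.6% ± 0.196 in Bur-0 and 4.17% ± 5.89 in C24 (SD, n = 2 each), a rise of 93.5 points (edgeR adjusted p = 0.00326). Fewer than 20 reads in each C24 library stand behind that value.

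MGT2 (AT1G16010), a magnesium transporter, and LARP6a (AT5G46250), a La-related RNA-binding protein, moved between donors. On the 5′ UTR side of MGT2, a donor that keeps 52 nt took 55 of 72 and 73 of 93 reads in Bur-0, against 0 of 76 and 0 of 61 in C24, where up to 2.19% is allowed (rise of 76.5 points, edgeR adjusted p = 0.000531). Kro-0 shared it with Bur-0, with 40 of 52 and 43 of 68 reads. In LARP6a the sites lie 6 nt apart within the coding span, a GC donor upstream and a GT donor downstream in the reference. The downstream donor had 155 of 155 and 143 of 145 reads in Bur-0, against 85 of 313 and 71 of 300 in C24, a PSI of 98.7% ± 1.00 and 25.3% ± 2.46 (SD, n = 2 each; rise of 73.3 points, edgeR adjusted p = 0.000106). C24 therefore used the upstream donor for most of its reads, as did Kro-0 (PSI 25.8%) and Ler-1 (28.3%), while Col-0 (99.6%) stood with Bur-0. The letters of that donor in C24, Kro-0 and Ler-1 were not seen here. The intron of the first form is 107 nt long in the Bur-0 assembly and 103 nt in that of C24.

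Other acceptors that kept more sequence in Bur-0 were in AT2G38330, a MATE efflux carrier, AT4G13050, an acyl-ACP thioesterase that releases fatty acids in the plastid, AT3G10760, a homeodomain-like protein, and TOM2B, a host factor of tobamovirus multiplication. AT2G38330 had 42 of 54 and 35 of 52 reads in Bur-0, against 0 of 67 and 0 of 58 in C24 (8 nt kept, rise of 71.2 points, edgeR adjusted p = 0.000962). AT4G13050 had 98 of 150 and 71 of 120 reads in Bur-0, against 0 of 66 and 0 of 59 in C24 (3 nt kept, rise of 61.8 points, edgeR adjusted p = 0.000815). For each of these genes 0 of 125 C24 reads allow up to 2.40%, and no Col-0, Kro-0 or Ler-1 read used the site. AT3G10760, where 29 nt on the 3′ UTR side are kept, had 36 of 38 reads in each Bur-0 library, against 3 of 19 and 3 of 25 in C24 (rise of 79.0 points, edgeR adjusted p = 0.00125). TOM2B rested on few reads, 13 of 19 and 12 of 15 in Bur-0, against 1 of 14 and 0 of 10 in C24 (rise of 66.7 points, edgeR adjusted p = 0.0195).

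Introns retained more in Bur-0 were led by SR34b (AT4G02430), a serine/arginine-rich splicing factor. At a 69 nt stretch of its coding span (chr4:1071216-1071284), all 27 and all 24 reads in Bur-0 were unspliced, against 1 of 47 and 4 of 48 in C24. PSI was 96.2% ± 0.303 in Bur-0 and 5.12% ± 4.30 in C24 (SD, n = 2 each; rise of 91.1 points, edgeR adjusted p = 0.00125). The stretch has GT and AG ends but is no annotated intron, and it is 69 nt long in the Bur-0 assembly and 82 nt in that of C24. A 236 nt stretch upstream in the same gene went the same way, at 25 of 25 and 20 of 20 unspliced reads in Bur-0, against 10 of 36 and 3 of 32 in C24 (77.6 points, edgeR adjusted p = 0.00626). Col-0 (PSI 95.9%) and Ler-1 (92.1%) kept the 69 nt stretch as Bur-0 did, and Kro-0 (0.909%) spliced it as C24 did. In GSTU10, a tau-class glutathione S-transferase, 11 of 12 and 10 of 11 reads were unspliced in Bur-0, against 13 of 49 and 3 of 58 in C24 (rise of 68.4 points, edgeR adjusted p = 0.0229), with at most 12 reads per library in Bur-0 and C24 values of 26.0% and 5.08%.

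AT5G09880, a CC1-like splicing factor, differed in a region of its coding span where 6 of its 17 tested events were called. Between the ends of a 599 nt annotated intron (597 nt in the Bur-0 assembly), a donor that keeps 190 nt was used in 179 of 233 and 159 of 213 reads in Bur-0, against 13 of 78 and 14 of 75 in C24 (rise of 58 points, edgeR adjusted p = 0.000591). A 76 nt exon inside the intron was included at a PSI of 87.1% and 85.8% in Bur-0, against 51.1% and 49.6% in C24 (rise of 36.1 points, edgeR adjusted p = 0.000962). A 409 nt stretch within the intron was retained less in Bur-0, at 36.2% and 43.7%, against 84.1% and 77.6% in C24 (−40.9 points, edgeR adjusted p = 0.00385). In Bur-0 and C24 its spliced reads are the reads of the donor that keeps 190 nt, so this fall is not a separate change. Col-0 (PSI 17.0%), Kro-0 (17.7%) and Ler-1 (10.6%) all lay with C24 at the named donor, and Bur-0 alone of the 5 accessions was high.

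The largest fall was at a donor of GTB1 (AT1G65440), which encodes an SPT6-like protein of transcript elongation. The downstream donor, which keeps the 24 nt in capitals above, was used in 0 of 158 and 7 of 198 reads in Bur-0, against 155 of 161 and 126 of 126 in C24. PSI was 1.76% ± 2.49 in Bur-0 and 97.4% ± 2.50 in C24 (SD, n = 2 each; −95.7 points, edgeR adjusted p = 0.00021). Both donors have GT in the reference, and the intron of the first form is 231 nt long in both assemblies. Only Bur-0 among the 5 accessions used the upstream donor for most reads, since Col-0, Kro-0 and Ler-1 had a PSI of 97.8% to 98.4%.

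In AT1G23130, a member of the polyketide cyclase and lipid transport family, both the choice of acceptor and the number of reads differed. The upstream acceptor was used in 1 of 308 and 38 of 293 reads in Bur-0, against all 3189 and all 4393 reads in C24. PSI fell by 93.3 points (edgeR adjusted p = 0.00074), and Bur-0 thus spliced mainly to the acceptor 8 nt downstream, a shift that is not a multiple of 3 within the coding span. ATG8E (AT2G45170), a ubiquitin-like protein of autophagy, had 0 of 18 and 5 of 35 reads of its upstream acceptor in Bur-0, against all 113 and all 104 in C24 (−92.1 points, edgeR adjusted p = 0.000962). For that acceptor a further event sets the AG in capitals against the AG 3 nt downstream, visible in the letters after it. The Bur-0 libraries used the upstream AG in 0 of 23 and 5 of 30 reads, against all 113 and all 104 in C24 (−91.0 points, edgeR adjusted p = 0.00125).

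ATG8E was also the gene with the most called events, 8 of 9 tested, of which 3 were higher and 5 lower in Bur-0. Several of the 8 share reads. An exon of 48 nt across the start of its coding span was included at a PSI of 86.1% and 80.6% in Bur-0, against 99.6% and 99.5% in C24 (−16.2 points, edgeR adjusted p = 0.00326). In the other direction, a 56 nt exon was included in all 381 and all 361 reads in Bur-0, against 307 of 319 and 270 of 285 in C24 (4.56 points, edgeR adjusted p = 0.00968). Skipping of the 48 nt exon was therefore seen in Bur-0 reads and skipping of the 56 nt exon in C24 reads, with no such read in the other accession.

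AtkdsA1 (AT1G79500), an enzyme that makes the sugar acid KDO of pectin, had an intron of 274 nt on its 3′ UTR side that was spliced in every Bur-0 read. Unspliced reads were 0 of 88 and 0 of 79 in Bur-0, where up to 1.80% is allowed, against 84 of 96 and 71 of 82 in C24 (−86.1 points, edgeR adjusted p = 0.00021). Acceptors inside that intron were likewise unused in Bur-0, against a PSI of 14.3% to 45.8% in C24. Introns on the 5′ UTR side were retained less in Bur-0 in NUFIP, which takes part in assembling small nucleolar RNPs, in AT1G01260, a bHLH protein of jasmonate signalling, and in AT3G20870, a ZIP metal transporter. NUFIP had 4 of 27 and 0 of 16 unspliced reads in Bur-0, against 15 of 21 and 18 of 25 in C24 (−61.6 points, edgeR adjusted p = 0.022). AT1G01260 fell by 60 points (edgeR adjusted p = 0.0218) and AT3G20870 by 58.3 points (edgeR adjusted p = 0.00956), where the Bur-0 libraries stood at 52.5% and 25.6%, against 97.1% and 97.6% in C24.

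GGH3 (AT1G78670), a gamma-glutamyl hydrolase that trims folate tails, used a donor in C24 that had no reads in any other accession. Reads of that donor were 0 of 259 and 0 of 211 in Bur-0, where up to 0.638% is allowed, against 13 of 13 and 10 of 12 in C24 (−84.9 points, edgeR adjusted p = 0.000981). Both donors have GT in the reference, and the event had 470 reads in Bur-0, against 25 in C24. AT3G26920, a protein with FBD and leucine-rich repeat domains, had 0 of 16 and 1 of 18 reads of its upstream acceptor in Bur-0, against 13 of 13 and 10 of 11 in C24 (−85.5 points, edgeR adjusted p = 0.00636). A donor of AT1G17145, a RING/U-box protein, fell by 79.1 points (edgeR adjusted p = 0.00417), and an acceptor of AT1G35340, with a LON protease domain, by 64.5 points (edgeR adjusted p = 0.000711). The intron of the AT1G35340 event is 116 nt long in the Bur-0 assembly and 124 nt in that of C24.

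**Figure D2:**
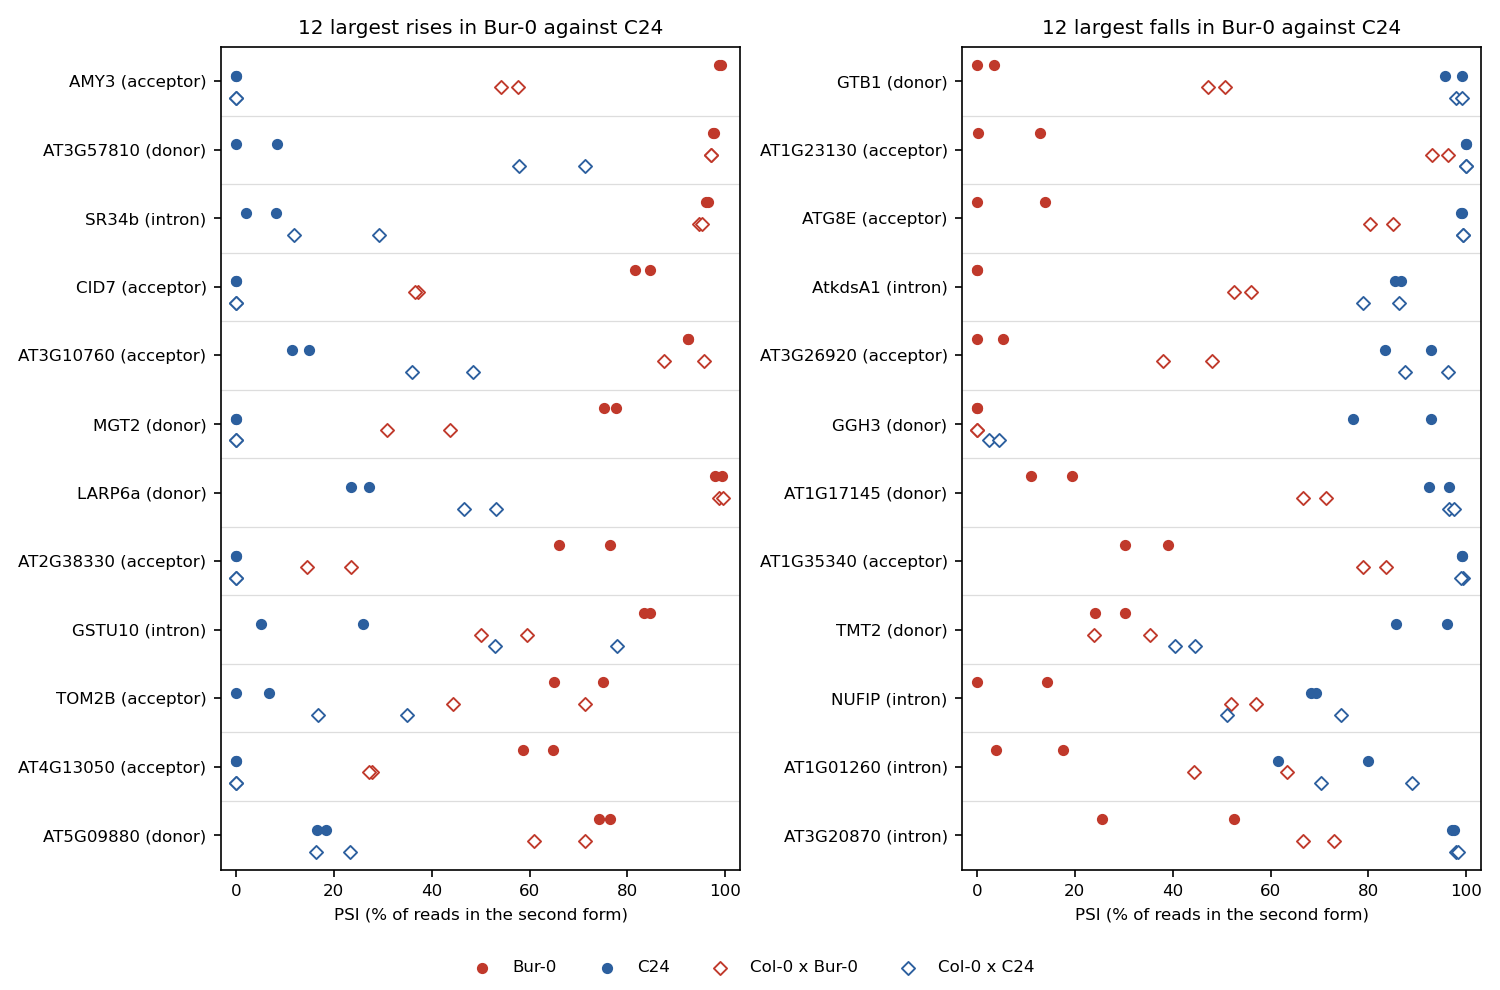
PSI in percent (x axis) of the 12 largest rises (left) and 12 largest falls (right) in Bur-0 relative to C24, 1 row per gene with the kind of event in brackets; each symbol is 1 library, filled red for Bur-0, filled blue for C24, open red for Col-0 x Bur-0 and open blue for Col-0 x C24. Filled red and filled blue symbols are apart in all 24 rows, and the open symbols overlap in GSTU10 and NUFIP.

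Of these 24 events, 14 had fewer than 50 reads in at least 1 library (5 of the rises and 9 of the falls). The number still called by edgeR was 17 without Bur-0 replicate 1, 16 without Bur-0 replicate 2, 3 without C24 replicate 1 (AMY3, CID7 and LARP6a) and 10 without C24 replicate 2, with adjusted p up to 0.227, 0.213, 0.21 and 0.285, and limma on PSI called 13; all 24 kept their direction in each of these fits.

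Differences between Bur-0 and C24 were found in all 4 types of event. Called were 84 of 1776 alternative acceptors (4.73%), 61 of 1191 alternative donors (5.12%), 112 of 1875 introns tested for retention (5.97%) and 20 of 316 skipped exons (6.33%), against 5.37% over all types. PSI was higher in Bur-0 in 46 of the acceptors, 40 of the donors, 67 of the introns and 13 of the exons, and lower in 38, 21, 45 and 7. The majorities among introns and acceptors did not hold with DESeq2, which had 42 introns higher and 44 lower in Bur-0, and 39 acceptors higher and 40 lower. With limma on PSI 15 introns were higher and 16 lower, and 1 exon was higher and 1 lower. Over all tested events, called or not, 57.5% had the higher PSI in Bur-0. The 1 added to the total lowers PSI more where reads are fewer, as in C24. This share therefore also carries read depth, and how much of it was not tested. Within alternative sites of the coding span, 37 of 776 events with a kept stretch that is a multiple of 3 were called (4.77%) and 56 of 1516 others (3.69%).

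By place in the gene, 56 of 735 events on the 5′ UTR side were called (7.62%), 182 of 3989 within the coding span (4.56%) and 21 of 208 on the 3′ UTR side (10.1%). Of the rest, 8 of 144 across an end of the coding span (5.56%) and 10 of 82 in genes without one (12.2%) were called. The 21 events of the 3′ UTR side lie in 11 genes. Among these is PHB3, a prohibitin of mitochondria, where a donor that keeps 8 nt had 22 of 52 and 24 of 46 reads in Bur-0, against all 35 and all 62 in C24 (−51.5 points, edgeR adjusted p = 0.00382). CHLM, a methyltransferase of chlorophyll synthesis, used an acceptor that keeps 43 nt in 273 of 481 and 316 of 530 reads in Bur-0, against 252 of 310 and 310 of 374 in C24 (−23.8 points, edgeR adjusted p = 0.00418). THIC, which makes the pyrimidine part of thiamin and carries a riboswitch in its 3′ UTR, had an intron there retained at 65.5% and 74.2% in Bur-0, against 86.0% and 85.6% in C24 (−16.0 points, edgeR adjusted p = 0.0201). In NFU1, a plastid iron-sulfur scaffold, an intron was retained at 78.9% and 78.2% in Bur-0, against 43.2% and 48.8% in C24 (rise of 32.6 points, edgeR adjusted p = 0.00543).

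Events whose intron has a different length in the Bur-0 and C24 assemblies were called more often than the rest. The length of the intron of the first form differed in 942 tested events, of which 113 were called (12%), and was equal in 4216, of which 164 were called (3.89%). The order was the same within each type, at 11.0% against 3.22% of acceptors, 10.7% against 3.33% of donors, 16.4% against 4.68% of introns and 10.3% against 4.57% of exons. It was also the same for a length difference of 1 to 10 nt (93 of 803, 11.6%) and of over 10 nt (20 of 139, 14.4%). Without C24 replicate 1 the shares at different and equal length were 0.212% and 0.0474%, and without C24 replicate 2 1.06% and 0.261%; without Bur-0 replicate 1 they were 1.91% and 0.569%, and without Bur-0 replicate 2 2.12% and 0.474%. All these shares are descriptions with no test, since several events share an intron. Base changes that leave the length equal are not seen in the event names.

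Alternative sites that lack splice letters in Col-0 were called more often still. In 39 tested acceptor or donor events only 1 of the 2 introns has GT or GC and AG ends in the reference, and 19 of these were called (48.7%), against 126 of 2911 events where both introns have such ends (4.33%), again with no test. The number called was 8 without Bur-0 replicate 1, 8 without its replicate 2, 3 without C24 replicate 1, 6 without C24 replicate 2 and 9 with limma, out of 39 each time. In all 19 the form without the letters had 0 reads in Col-0. A form with neither reference letters nor Col-0 reads was probably listed for its reads in another accession or hybrid. The class is thus not independent of differences between accessions, and its higher share cannot be read as a separate result. That form was higher in Bur-0 in 13 of the genes and higher in C24 in 6. AMY3, CID7, AT2G38330 and AT4G13050 are among the 13, and AT3G57810 among the 6.

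The other 14 spanned small and large shares of reads, summed here over the 2 libraries. In AT5G14920, a gibberellin-regulated family protein, a donor reading GA in Col-0 had 414 of 764 reads in Bur-0, against 0 of 378 in C24. UMAMIT47, a transporter of the amino acid exporter family, had 23 of 43 reads at an acceptor reading AA in Bur-0, against 0 of 94 in C24. AT5G26850 had 36 of 63 reads in Bur-0, against 0 of 94 in C24, and MBD7, a methyl-CpG-binding protein, 14 of 34 in Bur-0, against 0 of 42 in C24. The forms favoured by C24 included a donor of AT2G04790 (0 of 299 reads in Bur-0, against 56 of 101 in C24), an acceptor of AT3G13410 (0 of 546 in Bur-0, against 226 of 449 in C24) and an acceptor of ckl3, a casein kinase (0 of 192 in Bur-0, against 68 of 339 in C24). Kro-0 had 261 of 467 reads of the AT3G13410 form. At the low end, CAT3, a catalase that removes hydrogen peroxide, had 111 of 6526 reads in Bur-0, against 6 of 6334 in C24, and PRPL28, a plastid ribosomal protein, 27 of 3351 in Bur-0, against 0 of 2722 in C24.

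The hybrids carried these forms in the same pattern. In all 19 events the hybrid with the accession that favoured the form had reads of it, and in 18 the other hybrid had 0. AT5G14920 had 126 of 579 reads in Col-0 x Bur-0, against 0 of 778 in Col-0 x C24, and AT3G13410 had 0 of 508 in Col-0 x Bur-0, against 183 of 639 in Col-0 x C24. The exception was CAT3, with 49 of 5768 reads in Col-0 x Bur-0, against 1 of 8397 in Col-0 x C24. Between the hybrids 13 of the 19 were called by edgeR.

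**Figure D3:**
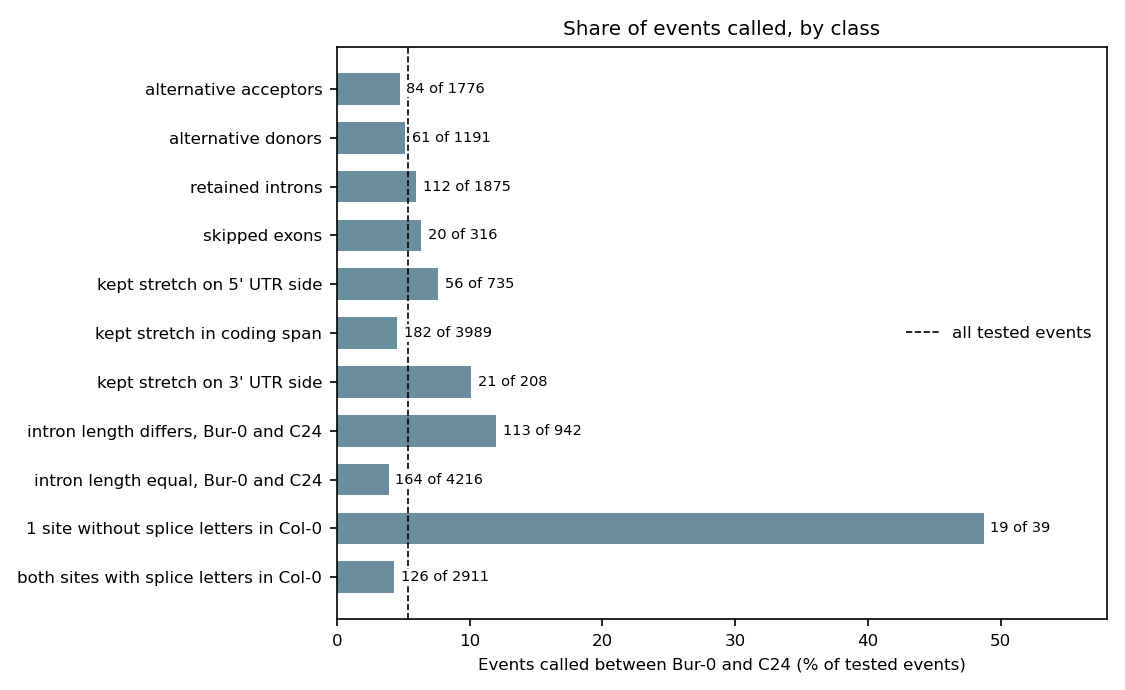
Share of tested events called between Bur-0 and C24, in percent (x axis, from 0), by class (rows), with the number called of the number tested beside each bar; the dashed line is the share over all tested events, 5.37%. Classes overlap, since each event has a type, a place and an intron length. The bar of alternative sites with 1 site lacking splice letters in Col-0 reaches 48.7%, and the 4 event types lie between 4.73% and 6.33%.

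Col-0 x Bur-0 was set against Col-0 x C24 in libraries that took no part in the calls. Tested the same way, 74 of 5259 events differed between the hybrids (1.41%), with PSI higher in Col-0 x Bur-0 in 43 and lower in 31. The count was 13 without Col-0 x Bur-0 replicate 1, 18 without its replicate 2, and 50 and 57 when replicate 1 or 2 of Col-0 x C24 was left out. Of the 276 called parental events that could be tested in the hybrids, 258 had the same direction there (93.5%, 95% Wilson interval 89.9% to 95.8%, for counting error only), against 2885 of 4849 events not called in the parents (59.5%). The interval takes events as independent, although events of 1 gene can share reads, so it is too narrow. At a difference of at least 10 points it was 176 of 188 (93.6%) against 440 of 596 (73.8%), and at 50 points or more 42 of 44 (95.5%). Both comparisons called 70 events, and all 72 hybrid calls that were tested in the parents had the parental direction.

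Differences between the hybrids were smaller than those between the parents. The median ratio of the hybrid to the parental difference was 0.444 over the called events of at least 10 points, with quartiles of 0.266 and 0.624. These events were chosen for a large parental difference, which by itself can lower the ratio. AMY3 had 288 of 499 and 308 of 568 reads of the upstream acceptor in Col-0 x Bur-0, against 0 of 457 and 0 of 592 in Col-0 x C24 (55.9 points, edgeR adjusted p = 2.09e-06). GTB1 stood at 47.2% and 50.8% in Col-0 x Bur-0, against 97.9% and 99.1% in Col-0 x C24 (−49.5 points, edgeR adjusted p = 1.79e-05), and LARP6a at 98.8% and 99.5% in Col-0 x Bur-0, against 46.7% and 53.2% in Col-0 x C24 (49.2 points, edgeR adjusted p = 1.79e-05). In each of these 3 the hybrid of the accession that differed from Col-0 lay between the levels of its parents.

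In other genes the hybrid stayed nearer to Col-0 than to its other parent, by the reads of the named event. AT1G23130 had a PSI of 93.0% and 96.3% in Col-0 x Bur-0, against 99.9% and 100% in Col-0 x C24 (−5.28 points, edgeR adjusted p = 0.000119), with 5105 reads of the event in Col-0 x Bur-0, 601 in Bur-0 and 7853 in Col-0. In these bulk samples fewer cells of a type and less RNA per cell cannot be told apart. GGH3 had 0 of 527 reads of the C24 donor in Col-0 x Bur-0, against 4 of 158 and 6 of 132 in Col-0 x C24 (−3.51 points, edgeR adjusted p = 0.0448), and 25 reads of the event in C24 stand beside 653 in Col-0. ATG8E differed by −16.6 points (edgeR adjusted p = 0.000758), with 53 reads in Bur-0 and 642 in Col-0. That event leaves out the AG 3 nt downstream of the upstream acceptor, and so does its hybrid value. The omitted AG had 23 and 25 reads in Bur-0, 0 and 1 in Col-0, and 30 and 24 in Col-0 x Bur-0. Reads of the next intron downstream were less unequal, 242 in Bur-0 and 621 in Col-0. In AT1G23130, GGH3 and ATG8E the parent whose form was rare in the hybrid had fewer reads of the named event than Col-0. The part these read numbers take in the hybrid value was not tested. Reads of a hybrid are not split by allele in the deposited counts.

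The events that went the other way in the hybrids were mostly retained introns. Among called events of at least 10 points the direction was the same in 44 of 45 acceptors, 38 of 39 donors, 12 of 12 exons and 82 of 92 introns (89.1%). Of the 12 opposite events, 10 were therefore retained introns, in GSTU10, PSBR, AT1G79245, WRKY33, AT3G19520, CPK32, AT4G16670, AT5G19240, AT5G50000 and CPK28 (an intron of 105 nt). Hybrid replicates were far apart in several of these. PSBR, a subunit of photosystem II, had at a 21 nt stretch a PSI of 45.2% and 93.3% in Col-0 x Bur-0, against 58.2% and 53.8% in Col-0 x C24, while it stood at 65.6% and 66.1% in Bur-0, against 97.8% and 97.3% in C24. For CPK32, a calcium-dependent kinase, replicates 1 and 2 had 624 and 101 reads in Col-0 x Bur-0 and 146 and 81 in Col-0 x C24. The other 2 were an acceptor of RBL6 and a donor of AT1G73480, and the edgeR adjusted p between the hybrids was 0.224 for WRKY33 and higher for the other 11. Some hardly differed between the hybrids, as in CPK28 (−0.0676 points), AT5G50000 (−0.74 points) and AT1G73480 (−0.857 points), while PSBR differed by 13.2 points. Opposite here thus means the sign only.

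The called events were also set beside the other accessions. Over the 184 called events of at least 10 points with 10 reads in each of the 10 accession libraries, only Bur-0 had both libraries outside the range of the other 8 in 71 events, only C24 in 59, both accessions in 19 and neither in 35. These events were chosen for a difference between Bur-0 and C24, which by itself favours an outermost Bur-0 or C24. The same counts were not made over all tested events, so these are descriptions only. The Col-0 mean was nearer to Bur-0 in 81 events and nearer to C24 in 103. TMT2, given below, is an event where Kro-0 went with C24, and SR34b one where Ler-1 and Col-0 went with Bur-0.

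Genes of known pathways were counted over 10 lists with 209 genes. The lists were chosen with earlier results of these data known, so their shares are descriptions and not independent results. Splicing factors had 5 of 82 events called (6.1%, against 5.37% overall), in SR34b, SR30 and RS40 out of 21 genes tested, 4 higher and 1 lower in Bur-0, with a median difference of 1.99 points over the 82 events, against 0.263 over all tested events. Both medians also carry the unequal read depth of the 2 accessions, through the 1 added to the total in PSI. Light signalling had 4 of 27 (14.8%), in PAT1, PIF4 and PIL6 out of 9 genes, 1 higher and 3 lower, and starch and sugar genes 4 of 21 (19.0%), in AMY3 and TMT2 out of 7 genes, 1 higher and 3 lower. The 3 lower starch and sugar events are overlapping donor events of TMT2 that share reads. Immunity genes had 3 of 6 called, in CPK28 and WRKY33 out of 4 genes, all higher in Bur-0, and photosynthesis genes 1 of 69 (1.45%). DESeq2 called 5, 1, 5, 1 and 2 events in these 5 lists in the same order, limma on PSI 1, 0, 2, 1 and 0, and one edgeR fit of the 10 accession libraries 6, 3, 5, 0 and 2. No light signalling or photosynthesis event was thus called by limma, and no immunity event in the fit of 10 libraries.

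In 5 lists edgeR called no event. These were the circadian clock (0 of 29 events, 6 at an unadjusted p under 0.05), flowering time (0 of 12, 0 unadjusted), abiotic stress and ABA (0 of 7, 5 unadjusted), glucosinolates (0 of 1, 0 unadjusted) and the other cell types (0 of 3, 1 unadjusted). DESeq2 and limma on PSI also called 0 in each of the 5.

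SR30 (AT1G09140), a serine/arginine-rich splicing factor that regulates its own splicing, moved at an acceptor that keeps 338 nt of a 942 nt intron. That acceptor had 135 of 235 and 119 of 206 reads in Bur-0, against 24 of 95 and 18 of 121 in C24, a PSI of 57.3% ± 0.201 and 19.9% ± 7.24 (SD, n = 2 each; rise of 37.5 points, edgeR adjusted p = 0.00484). Kro-0 was higher still (62.3%), and Col-0 (48.5%) and Ler-1 (36.8%) lay between. A different acceptor of SR30, which reads AT in Col-0, had 0 of 263 and 0 of 246 reads in Bur-0, against 8 of 146 and 8 of 117 in C24 (−6.11 points, edgeR adjusted p = 0.0129). In RS40 (AT4G25500), a plant splicing factor of the RS group, a 782 nt intron was retained in 73 of 233 and 63 of 250 reads in Bur-0, against 17 of 147 and 13 of 163 in C24 (rise of 18.4 points, edgeR adjusted p = 0.0176). Col-0 stood at 15.3%, Ler-1 at 16.1% and Kro-0 at 8.90%, so Bur-0 was the highest of the 5.

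Among light signalling genes, PIF4 and PIL6 (also called PIF5) encode bHLH factors that promote growth and are removed by phytochromes, and PAT1 is a GRAS protein of phytochrome A signalling. A 138 nt intron of PIF4 was retained in 264 of 656 and 338 of 724 reads in Bur-0, against 83 of 300 and 76 of 309 in C24 (rise of 17.4 points, edgeR adjusted p = 0.0351), while Kro-0 stood at 30%, Ler-1 at 25.2% and Col-0 at 28.9%. PIL6 had 0 of 491 and 0 of 408 reads of an acceptor that keeps 11 nt on its 5′ UTR side in Bur-0, where up to 0.334% is allowed, against 15 of 162 and 6 of 170 in C24 (−6.36 points, edgeR adjusted p = 0.0133). Ler-1 also had 0 reads of that acceptor, of 539, while Col-0 had a PSI of 10% and Kro-0 of 8.95%. In PAT1 an acceptor that keeps 305 nt of the 5′ UTR side was used in 87 of 160 and 85 of 152 reads in Bur-0, against 70 of 86 and 48 of 64 in C24 (−22.4 points, edgeR adjusted p = 0.0382). Ler-1 lay above both at 98.4%.

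TMT2 (AT4G35300), which carries sugars into the vacuole, used a donor that keeps 158 nt on its 5′ UTR side in 14 of 57 and 19 of 62 reads in Bur-0, against 18 of 20 and 24 of 24 in C24. PSI was 27.1% ± 4.26 in Bur-0 and 90.9% ± 7.27 in C24 (SD, n = 2 each; −63.7 points, edgeR adjusted p = 0.00652), and the intron is 446 nt long in the Bur-0 assembly and 443 nt in that of C24. Kro-0 (95.8%) was as high as C24, and Col-0 (24.3%) and Ler-1 (24.4%) were as low as Bur-0. Col-0 x Bur-0 stood at 24% and 35.3%, against 44.6% and 40.4% in Col-0 x C24 (−12.9 points, edgeR adjusted p = 0.649).

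Both immunity genes had more intron retention in Bur-0. CPK28, a calcium-dependent kinase that limits immune signalling, retained a 95 nt intron in 170 of 234 and 146 of 207 reads in Bur-0, against 54 of 114 and 56 of 116 in C24 (rise of 23.9 points, edgeR adjusted p = 0.0176), and a 105 nt intron at 68.7% and 64.5% in Bur-0, against 47.4% and 42.0% in C24 (rise of 21.9 points, edgeR adjusted p = 0.0423). WRKY33, a transcription factor of defence against fungi, retained a 69 nt intron in 103 of 306 and 136 of 345 reads in Bur-0, against 29 of 267 and 44 of 270 in C24 (rise of 22.9 points, edgeR adjusted p = 0.00956). Replicates of the other groups were far apart in the PSI of CPK28, and those of the hybrids in the number of WRKY33 reads. The 95 nt intron of CPK28 had a PSI of 58.7% over 508 reads and 7.89% over 75 reads in Col-0 x Bur-0, against 55.2% over 171 and 2.50% over 79 in Col-0 x C24, and WRKY33 had 1259 and 127 reads in Col-0 x Bur-0, against 341 and 143 in Col-0 x C24. With 1 fit over the 10 accession libraries the edgeR adjusted p of this CPK28 intron was 0.234.

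RBCS1A was called for a difference of −0.11 points. Its event is a 134 nt stretch of the coding span with the ends TA and GA in the reference, and it was left unremoved in 166451 of 166771 and 187734 of 187788 reads in Bur-0, against all 159260 and all 141931 in C24 (edgeR adjusted p = 0.0287). The difference amounts to 320 and 54 reads of a stretch without splice letters.

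**Figure D4:**
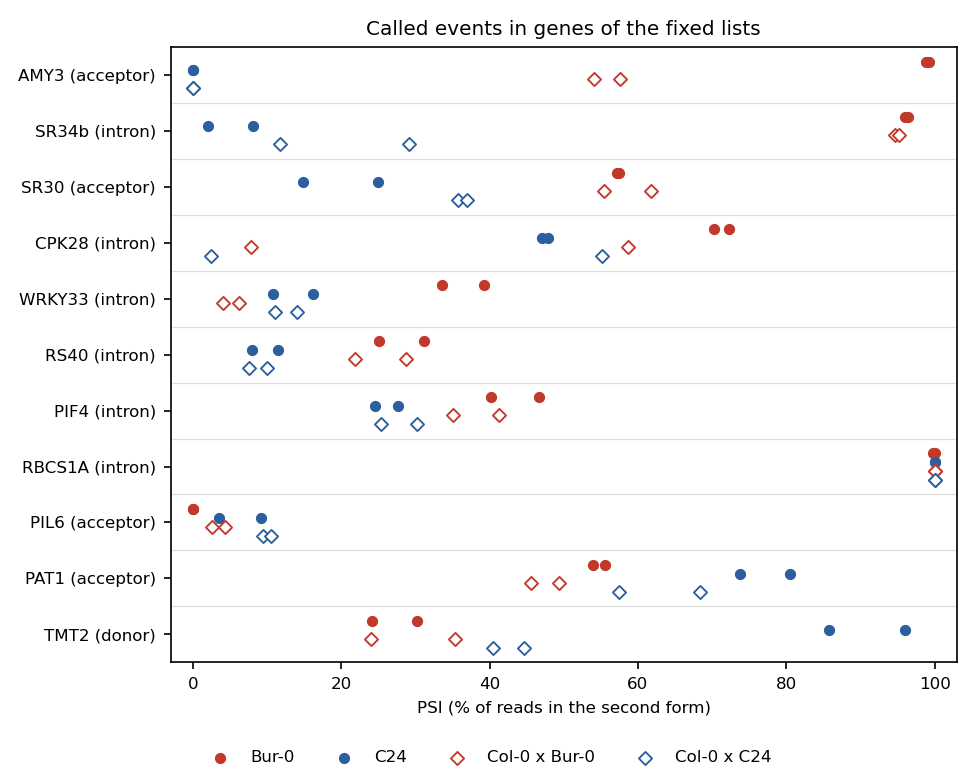
PSI in percent (x axis) of the called events in genes of the lists, 1 row per gene with the kind of event in brackets, ordered by the Bur-0 minus C24 difference from highest (top) to lowest; each symbol is 1 library, filled red for Bur-0, filled blue for C24, open red for Col-0 x Bur-0 and open blue for Col-0 x C24. Filled red and blue symbols are apart in every row but that of RBCS1A, whose difference of 0.11 points is too small to show on this axis. The open symbols of CPK28 run from 2.50% to 58.7%.

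For these 11 list events (AMY3, SR34b and TMT2 included) edgeR called 2 without Bur-0 replicate 1, 2 without Bur-0 replicate 2, 1 without C24 replicate 1 and 1 without C24 replicate 2, with adjusted p up to 0.202, 0.285, 0.29 and 0.253. DESeq2 called 7 and left out PIF4 (adjusted p = 0.348), CPK28 (0.121), RS40 (0.109) and PAT1 (0.0649). Limma on PSI called 3 of the 11, with adjusted p up to 0.951, and the edgeR fit of 10 libraries called 8 of the 10 it tested, with adjusted p up to 0.234.

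Apart from ATG8E and AT5G09880, the genes with 4 or more called events were AT3G05160, AT1G52510, DRH1 and AT4G38545. AT3G05160, a sugar-porter-like member of the major facilitator family, had all 7 of its tested events called and all higher in Bur-0. Several of the 7 share the same first-form reads, so they are not separate results. A 66 nt exon of its coding span was included in all 274 and all 342 reads in Bur-0, against 137 of 203 and 128 of 170 in C24 (rise of 28.7 points, edgeR adjusted p = 0.000698). In the hybrids it was included in all 259 and all 316 reads of Col-0 x Bur-0, against 163 of 205 and 250 of 298 in Col-0 x C24 (18.3 points, edgeR adjusted p = 0.000134). Skipping of this exon was thus seen only where a C24 genome was present among these 4 groups, and Col-0 included it in all 231 and all 261 reads.

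DRH1, a DEAD-box RNA helicase, had 5 of 8 events called, all higher in Bur-0 and all within a 611 nt intron. All 5 share the same first-form reads, so they are not 5 separate results. That intron was retained in 199 of 631 and 143 of 504 reads in Bur-0, against 22 of 497 and 26 of 484 in C24 (rise of 25 points, edgeR adjusted p = 0.000628), and a 212 nt exon inside it was included at 9.98% and 11.7% in Bur-0, against 0.21% and 1.29% in C24 (rise of 10.1 points, edgeR adjusted p = 0.00385). Col-0 resembled Bur-0, at 24.8% and 42.1% retention. AT1G52510, an alpha/beta-hydrolase, had 6 of 12 events called on its 3′ UTR side, among them an intron of 102 nt retained at 73.4% and 78.6% in Bur-0, against 30.4% and 23.8% in C24 (rise of 48.9 points, edgeR adjusted p = 0.0146). Some of the 6 also share reads. In AT4G38545, a gene with no coding span in the annotation, 3 introns were retained more in Bur-0, by 30.9 to 39.5 points, and a further stretch less, by −15.5 points.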

How the data were processed

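Arabidopsis polyA RNA was sequenced and events were listed by the authors, 1 list per library. Per the file headers, each event has 2 deposited counts, reads of form 1 and form 2, and a deposited PSI fraction, which equals form 2 divided by the sum of both plus 1. HISAT2, edgeR 3.0.8 and the build TAIR10 are named in the submitters' processing notes; what each tool did, and how events were defined and filtered, are not given in the sources used here. Chromosome coordinates were used as those of RefSeq TAIR10.1. They mark the exon bases beside an intron: 6301 of 6553 first introns then end in GT or GC and AG. Of events with only the first intron annotated, 868 of 887 had more form 1 reads in Col-0, and of those with only the second, 12 of 1043. Gene names came from RefSeq (2988 of 2993 loci matched; 203 of 209 list genes). Accession intron lengths were read from the event names.

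The counts were tested with edgeR 4.0.16 (R 4.3.3; quasi-likelihood, a term per library, form and form by group; 4 libraries, at least 10 reads in each; Benjamini-Hochberg over all events, adjusted p under 0.05), and the 2 hybrids likewise. Alternatives were read minimums of 20 and 1, TMM scaling per form, DESeq2 1.42.0, limma 3.58.1 on PSI, a replicate block, leaving out each library, and 1 fit of 10 accession libraries. Tables and plots used pandas 2.3.3, numpy 2.4.6, SciPy 1.17.1 and matplotlib 3.10.9. No pair of replicates had identical counts. On simulated data for Bur-0 against C24 with 200 changed events, a log2 odds difference of 1, 2, 3 and 4 was recovered in 17%, 57.1%, 81.2% and 87.8%, with 6 of 4842 unchanged events called. For the hybrids the shares were 2.04%, 50%, 81.6% and 95.9%, with 7 of 4978. In both simulations the changed events were drawn from those with a pooled PSI between 5% and 95%. The recovered shares therefore do not cover events nearer to either end.

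Named events are the 12 largest PSI rises and 12 largest falls among called events without overlap, 1 per gene, and at most 14 called events in list genes; PHB3, CHLM, THIC, NFU1, the genes with 4 or more called events, those with reference sites lacking splice letters and those opposite in the hybrids were named after their values were seen. The members and lists were chosen with earlier results of these data known. Library totals were 3186952 to 5492731 reads in the groups tested, and 0 reads are given with the limit that 3 reads of the total allow. Reads carry no molecular identifiers, so limits and intervals cover counting error only. The hybrids of Col-0 with Kro-0 and Ler-1 were not used.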

Additional observations from a re-analysis of the deposited data

Results flagged for a closer look

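The WRKY33 difference between the accessions and that between their hybrids had opposite signs, and only the first was called. Retention of its 69 nt intron was higher in Bur-0 (33.6% and 39.3%) than in C24 (10.8% and 16.2%), by 22.9 points (edgeR adjusted p = 0.00956), and lower in Col-0 x Bur-0 (4.13% and 6.25%) than in Col-0 x C24 (14.0% and 11.1%), by −7.38 points (edgeR adjusted p = 0.224). Neither pair of groups overlapped, and the difference between the 2 comparisons was not tested. Reads of the event were 1259 and 127 in Col-0 x Bur-0, against 341 and 143 in Col-0 x C24.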

How the results depend on the processing

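With 2 libraries per group and 69 to 105 reads at the median event, the number of calls moved more than their direction. Against 277 calls between Bur-0 and C24, limma on PSI made 73, and leaving out 1 library gave 4 to 42. The share of calls higher in Bur-0 was 59.9%, 66.4% with TMM scaling, 52.3% with DESeq2 and 57.5% to 75% without 1 library. Against 74 calls between the hybrids, limma made 4 (75% higher in Col-0 x Bur-0), and leaving out 1 library gave 13 to 57 (50% to 64.9% higher). The share of parental calls with the same direction in the hybrids was 92.8% to 100% without 1 library. A group left with 1 library was assumed to vary like the other. Read minimums of 20 and 1 gave 224 and 276 parental calls, DESeq2 235 and TMM 274, within 1.5 times the reported count; 1 fit of 10 accession libraries gave 403, of which 267 were among the 277. For the named events, 266 of 373 values under the alternatives kept direction and call, 107 kept the direction but not the call, and 0 reversed. The cause of these moves was not tested.

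With the replicate number as a block, 485 events were called between Bur-0 and C24 and 172 between the hybrids, and 89.6% of the Bur-0 against C24 calls had the same direction in the hybrids. Deviations of libraries with the same number correlated at 0.0081 in the accessions and 0.172 in the hybrids, over 2 pairs each. The labels do not say whether equal numbers mark a pair, and the reported fits took no block. These correlations run over all tested events and cannot exclude an effect shared by libraries of the same number, least of all in the hybrids.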

Other observations

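The pattern by intron length and by splice letters was also counted in the hybrid libraries, which took no part in the calls between Bur-0 and C24. Between the hybrid of Bur-0 and that of C24, 34 of 962 events whose intron differs in length between the Bur-0 and C24 assemblies were called (3.53%), against 40 of 4297 of equal length (0.931%). Alternative sites with 1 intron lacking splice letters in Col-0 were called in 14 of 40 events (35%), against 41 of 2980 where both introns have them (1.38%). The length of the kept stretch at alternative sites was not ordered in this way between Bur-0 and C24, with 19 of 432 events of 1 to 12 nt called (4.40%), 51 of 1262 of 13 to 60 nt (4.04%) and 75 of 1273 that were longer (5.89%). Retention events at stretches without splice letters in Col-0 were called in 19 of 164 (11.6%), against 93 of 1711 with them (5.44%). These shares are descriptions with no test. The hybrid shares rest on the same event lists, so the limit given for sites lacking splice letters holds for them too.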
